A study of Arabidopsis thaliana with 2 samples.

Results

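Transposable element genes are annotated loci that lie in, or derive from, mobile DNA, and the loci described here are those that the deposited tables name with the product "transposable element gene". Of 21808 nuclear and organellar loci with reads in at least 1 library, 316 carried that product name, 226 of them read in wild type and 254 in the mutant. RefSeq annotates 314 of the 316 as pseudogenes, and the other two (MUG3 and MUG7) as protein-coding genes. The study compared whole 10-day Arabidopsis thaliana seedlings of wild type with seedlings of the crwn1 crwn2 double mutant, which lacks function of a pair of CRWN coiled-coil proteins of the nuclear periphery. There was 1 library of each genotype, from polyadenylated RNA, and the wild-type library held about 2.1e+06 reads and the mutant library 2.2e+06. The sources used here do not give the mutant alleles, the wild-type accession or the number of pooled seedlings. With 1 library per genotype no difference has a replicate check, so no test was made, and the intervals below are exact 95% Clopper-Pearson intervals that cover counting error only. A difference may lie between these 2 seedling samples as much as between the genotypes.

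The libraries bore their labels. CRWN1 had 1021 wild-type and 57 mutant reads, and CRWN2 had 148 and 9. Both held leaf and root transcripts: the Rubisco small subunit gene RBCS1A had 1228 and 1820 reads, the antenna protein gene LHCB1.3 had 23394 and 14342, and the root hair wall protein gene PRP3 had 7 and 96. The last of these differed between the libraries by much more than most genes, and its part in the results below was not tested.

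Retrotransposons copy themselves through an RNA intermediate that is reverse transcribed, and long terminal repeat types encode a gag and a pol polyprotein. LINE-like and Sadhu elements lack such terminal repeats. DNA transposons such as Mutator, hAT and En/Spm move as DNA with the help of a transposase, and some of their coding regions have become ordinary genes, among them the MUSTANG genes. In Arabidopsis most elements are kept silent by DNA methylation and histone H3 lysine 9 methylation and lie in the heterochromatin around the centromeres, which gathers at chromocenters whose form depends on CRWN proteins.

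The loci that the results turn on are shown first, by the 300 bases that run from 250 before to 50 after the annotated start, read from RefSeq TAIR10.1 on the strand of the locus. The annotated start of a transposable element gene is the start of its gene model, not a mapped transcription start. Reverse transcription of a long terminal repeat element begins at a primer-binding site next to the left repeat, commonly complementary to the 3′ end of the initiator methionine tRNA. The letters TGGTATCAGAGC are the reverse complement of the last bases, CCA included, of 8 of the 23 nuclear tRNA-Met genes, and among the complements of such tRNA ends they are the most common in the genome, with 429 occurrences on chromosomes 1 to 5. They stood in the window of 44 of the 316 loci on either strand (13.9%), 43 of them on the strand of the locus, and in 14 of 27443 protein-coding windows (0.0510%). The letters TATAAA, searched on both strands too, stood in 123 of the 316 windows (38.9%) and in 52.1% of the protein-coding windows. In the lines below, capitals mark these primer-binding letters and TATAAA or its reverse complement TTTATA. The windows are AT1G58561 (chr1:21748425-21748724, plus strand), AT2G07080 (chr2:2935989-2936288, plus strand), AT4G04410 (chr4:2189265-2189564, plus strand), AT5G27947 (chr5:9982807-9983106, minus strand) and AT5G35935 (chr5:14089842-14090141, minus strand). They were chosen because they are called loci, or, for AT2G07080, the locus with the most reads.
AT1G58561: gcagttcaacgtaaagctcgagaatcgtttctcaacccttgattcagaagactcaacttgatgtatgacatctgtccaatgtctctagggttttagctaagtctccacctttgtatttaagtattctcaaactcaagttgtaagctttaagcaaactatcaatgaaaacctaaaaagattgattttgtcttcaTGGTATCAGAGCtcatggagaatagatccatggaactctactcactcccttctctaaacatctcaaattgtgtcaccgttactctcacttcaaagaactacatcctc
AT2G07080: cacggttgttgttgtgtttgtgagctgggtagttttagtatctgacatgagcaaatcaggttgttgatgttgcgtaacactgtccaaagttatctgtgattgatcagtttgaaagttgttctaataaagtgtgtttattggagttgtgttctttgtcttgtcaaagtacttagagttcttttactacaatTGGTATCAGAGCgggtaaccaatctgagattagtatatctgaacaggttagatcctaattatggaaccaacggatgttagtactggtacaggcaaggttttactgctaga
AT4G04410: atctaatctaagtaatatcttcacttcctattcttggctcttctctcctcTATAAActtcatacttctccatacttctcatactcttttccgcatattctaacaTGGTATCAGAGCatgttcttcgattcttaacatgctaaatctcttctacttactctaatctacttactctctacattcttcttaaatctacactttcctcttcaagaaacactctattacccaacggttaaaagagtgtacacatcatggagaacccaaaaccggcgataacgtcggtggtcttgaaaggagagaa
AT5G27947: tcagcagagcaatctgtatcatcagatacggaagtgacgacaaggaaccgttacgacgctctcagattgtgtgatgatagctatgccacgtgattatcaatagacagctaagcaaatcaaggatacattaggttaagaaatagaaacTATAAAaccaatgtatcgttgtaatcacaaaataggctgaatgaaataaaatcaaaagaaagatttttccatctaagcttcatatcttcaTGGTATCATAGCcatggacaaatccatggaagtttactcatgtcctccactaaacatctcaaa
AT5G35935: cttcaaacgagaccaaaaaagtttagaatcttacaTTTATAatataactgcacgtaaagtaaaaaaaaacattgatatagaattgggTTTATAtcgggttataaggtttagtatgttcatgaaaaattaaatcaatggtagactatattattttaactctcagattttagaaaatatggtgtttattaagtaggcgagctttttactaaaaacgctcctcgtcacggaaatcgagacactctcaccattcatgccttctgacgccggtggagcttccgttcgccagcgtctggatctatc

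The primer-binding letters began 57 bases before the annotated start in AT1G58561, 60 before in AT2G07080 and 146 before in AT4G04410. In AT5G27947 the nearest match began 13 bases before the start and differed by 1 base, G9T, counted from 1 at the 5′ end of TGGTATCAGAGC with the motif's base first. The window of AT5G35935 held no exact match. A match is a description of the letters, and its use in reverse transcription was not measured.

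Transcripts of these loci took a like small part of each library. They summed to 6985 reads in wild type, 0.334% of the library (0.326 to 0.341%), and to 7126 in crwn1 crwn2, 0.323% (0.316 to 0.331%). The ratio of the summed reads for equal totals, mutant over wild type, was 0.970 (0.938 to 1.002), an interval that holds equality. That sum depended on 1 locus: without AT2G07080 it was 5638 and 6280 reads, a ratio of 1.059 (1.021 to 1.098). Most of the 316 loci were close to silent. The median locus had 1 read in each library, 81 loci in wild type and 107 in the mutant had exactly 1 read, and 13 and 16 loci reached 100 reads. The 12 loci with the most reads carried 63.7% of the class in wild type and 58.7% in crwn1 crwn2.

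A locus counted as measured when it reached an RPKM (reads scaled to model length and library size) of 1 and had 10 reads in 1 library or both, and 81 of the 316 qualified. A difference was called when it was at least 2-fold on RPKM + 1 and the exact interval of the read ratio left out equality. By that rule 3 of the 81 measured loci were higher in crwn1 crwn2 (3.70%) and 3 were lower (3.70%). Over all 14393 measured loci, 6.34% were called higher and 4.53% lower, so the class held no larger share of calls than the background. Both parts of the rule are harder to pass at few reads, and the class was not matched to the background for read depth. With the RPKM floor raised to 5, 51 of the 81 stayed measured. The shares here and below are therefore not compared at like depth. The median log2 ratio of RPKM + 1 was 0.05 (quartiles -0.31 and 0.41), beside 0.12 for all measured loci (quartiles -0.24 and 0.46). Of the 81 loci, 42 lay above 0 and 39 below it, while 59.4% of all measured loci lay above 0. Within 2-fold lay 91.4% of the 81, against 88.2% of all measured loci.

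**Figure D1:**
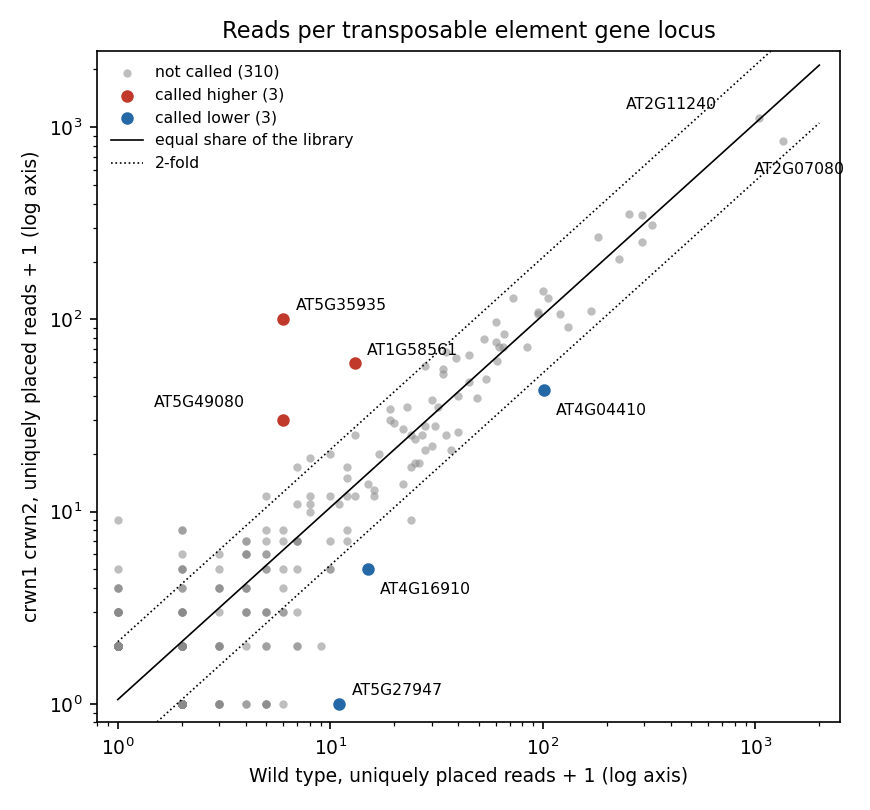
Reads per locus in the wild-type library (x axis) and the crwn1 crwn2 library (y axis), each plus 1, on log axes, for the 316 loci. Each point is 1 locus, the solid line marks an equal share of each library and the dotted lines a 2-fold difference in reads; most loci above 10 reads lie between the dotted lines, and the 6 called loci are coloured.

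The largest difference among measured loci was that of AT5G35935, a locus of 6504 bp on the minus strand of chromosome 5 (chr5:14083388-14089891, TAIR10) whose deposited annotation names a reverse transcriptase. It had 5 wild-type and 100 mutant reads, an RPKM of 0.367 and 6.98. Reads covered 3.47% of the model in wild type and 20.8% in the mutant, so the mutant's reads lay over more of the model without covering most of it. The read ratio was 19.0 (7.88 to 59.8) and the log2 ratio of RPKM + 1 was 2.54. The locus lies 2.09 Mb from the approximate centromere, and 99.8% of its 49-base windows occur at a single place in the genome. Its neighbour on the right, AT5G35940, a protein-coding gene 682 bp away, went the other way, with 54 wild-type and 19 mutant reads (log2 ratio -1.43), itself called lower. Its neighbour on the left is not listed with reads in either library.

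AT1G58561 encodes polyprotein sequence of a retrotransposon and lies on chromosome 1 (chr1:21748675-21753246, plus strand), 6.75 Mb from the centromere. It had 12 wild-type and 58 mutant reads, an RPKM of 1.25 and 5.76, with coverage of 11.1% and 36.1%. The read ratio was 4.59 (2.44 to 9.40) and the log2 ratio 1.58. The element sits on the same strand inside an intron of AT1G58602, a disease resistance gene of the nucleotide-binding leucine-rich repeat type, which had 83 and 99 reads (log2 ratio 0.17). The host gene's counted reads thus did not follow the element's. They covered only 11.7% of its length in wild type and 12.2% in the mutant, so they stand for a small part of it. Reads from retained intron sequence and from a transcript of the element itself cannot be told apart in these counts.

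AT5G49080 on chromosome 5 (chr5:19890784-19892809, minus strand) was the remaining locus called higher, with 5 reads in wild type and 29 in crwn1 crwn2. Its RPKM was 1.18 and 6.50, the read ratio 5.51 (2.11 to 18.2) and the log2 ratio 1.78. RefSeq gives it the symbol EXT11, for extensin 11, a hydroxyproline-rich structural protein of the cell wall and not a product of mobile DNA. Only 61.9% of its 49-base windows are unique, so near-identical extensin copies could share or lose its reads and its level is uncertain.

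All 3 loci called lower carry polyprotein annotation. AT4G04410 on chromosome 4 (chr4:2189515-2193763, plus strand), 1.81 Mb from the centromere, had 100 reads in wild type and 42 in crwn1 crwn2. Its RPKM was 11.2 and 4.49, coverage was 51.9% and 31.1%, and reads were 2.51-fold lower (1.73 to 3.68), a log2 ratio of -1.16. Neither of its RefSeq neighbours is listed with reads, and whether they were among the models counted is not given. AT4G16910 (chr4:9509676-9511760, minus strand) had 14 and 4 reads, an RPKM of 3.21 and 0.871 and a log2 ratio of -1.17. It lies 98 bp from AT4G16900, which also had fewer reads in the mutant, 90 against 60 (ratio 0.634, 0.449 to 0.888), without being called. AT5G27947 (chr5:9979367-9982856, minus strand) had 10 reads in wild type and 0 in crwn1 crwn2. With a floor of 3 reads put in place of the 0 in the mutant library it was 3.51-fold lower. The limit of the exact interval nearest to equality was 2.36-fold. Its neighbour AT5G27950, 1187 bp away, had 158 and 177 reads.

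None of the 12 loci with the most reads differed 2-fold, although the read-ratio intervals of 6 of them left out equality. AT2G07080, a polyprotein locus 0.662 Mb from the centromere of chromosome 2, had 1347 wild-type and 846 mutant reads, an RPKM of 248 and 148. Its ratio of 0.597 (0.547 to 0.651) left out equality, while its log2 ratio of -0.74 stayed inside the 2-fold limit. Reads covered only 24.3% and 24.0% of its 2589 bp, so its many reads fell on a small part of the model in each library, at positions that the files do not give. Neither neighbouring locus is listed with reads. AT2G11240, a LINE-like locus of 6063 bp and 0.881 Mb from the same centromere, had 1037 and 1122 reads, an RPKM of 81.7 and 84.0, over 75.6% and 76.8% of its length. Its ratio was 1.03 (0.944 to 1.12). Together these loci carried 34.1% of the class in wild type and 27.6% in the mutant.

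Of the other 10 loci with the most reads, the polyprotein loci AT1G35115 and AT4G16870 had 293 and 348 reads and 327 and 309 reads. AT4G16870 stands in the RPP4 resistance gene cluster, 68 bp from RPP4, which had 103 and 148 reads. The polyprotein locus AT2G06950 had 254 wild-type and 351 mutant reads (ratio 1.31, 1.11 to 1.55). AT1G80020, at the far end of chromosome 1 with every 49-base window unique, had 180 and 267 reads (ratio 1.41, 1.16 to 1.71), and its neighbour FRS8, a gene of the FAR1-related family, which itself descends from a Mutator transposase, had 106 and 159. The LINE-like locus AT3G28160 had 168 and 110 reads (ratio 0.622, 0.485 to 0.796). AT1G20390 had 293 and 251 reads (ratio 0.814, 0.685 to 0.967), the LINE-like locus AT5G55896 had 105 and 129, and the Mutator locus AT2G13970 had 119 and 106. None of these 10 reached a 2-fold difference, and they lay on both sides of equality. The last 2 of the 10, SADHU1-1 and MUG1, are given with their families.

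The 8 MUSTANG genes (MUG1 to MUG8 in RefSeq) are domesticated transposase genes, descendants of Mutator-like elements that are kept for a cellular role in plant growth and flowering. All 8 were read in both libraries, with 371 wild-type and 482 mutant reads, a ratio of 1.23 (1.08 to 1.42). MUG1 (AT3G04605) had 99 and 140 reads, an RPKM of 12.7 and 17.0 (ratio 1.34, 1.03 to 1.76). MUG6 had 38 and 62 reads, MUG7 44 and 64, MUG5 59 and 75, and MUG8 94 and 106. MUG3 alone among the measured members had more reads in wild type, 27 against 20. Of 7 measured members 6 lay above 0 with a median log2 ratio of 0.25, and none was called. Of all measured loci 59.4% lay above 0, with a median of 0.12. Under TMM, a scaling that centres the bulk of genes, the MUSTANG ratio was 1.12 (0.980 to 1.29) and 5 of the 7 lay above 0. Their median was then 0.13, beside -0.01 for all measured loci. These genes carried 5.31% and 6.76% of the reads of all 316 loci although they are not mobile.

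Sadhu elements are short non-autonomous retroposons of Arabidopsis that lack coding sequence for their own movement. The 11 Sadhu loci had 375 wild-type and 381 mutant reads, a ratio of 0.966 (0.835 to 1.12). SADHU1-1 (AT2G10410) held most of them, 227 and 206 reads, at an RPKM of 103 and 89.0 over 90.1% and 89.8% of its 1050 bp. SADHU2-1 (AT1G35112) had 34 and 67 reads, an RPKM of 18.2 and 34.1 (ratio 1.87, 1.22 to 2.92, log2 ratio 0.87), and it lies 1039 bp from the strongly read AT1G35115. SADHU4-1 had 18 and 29 reads. On the other side of equality were SADHU1-2 with 29 and 21 reads, SADHU1-3 with 34 and 24, and SADHU6-1 with 15 and 11. Every interval but that of SADHU2-1 held equality, and the 7 measured members fell on both sides, 3 above 0 and 4 below.

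**Figure D2:**
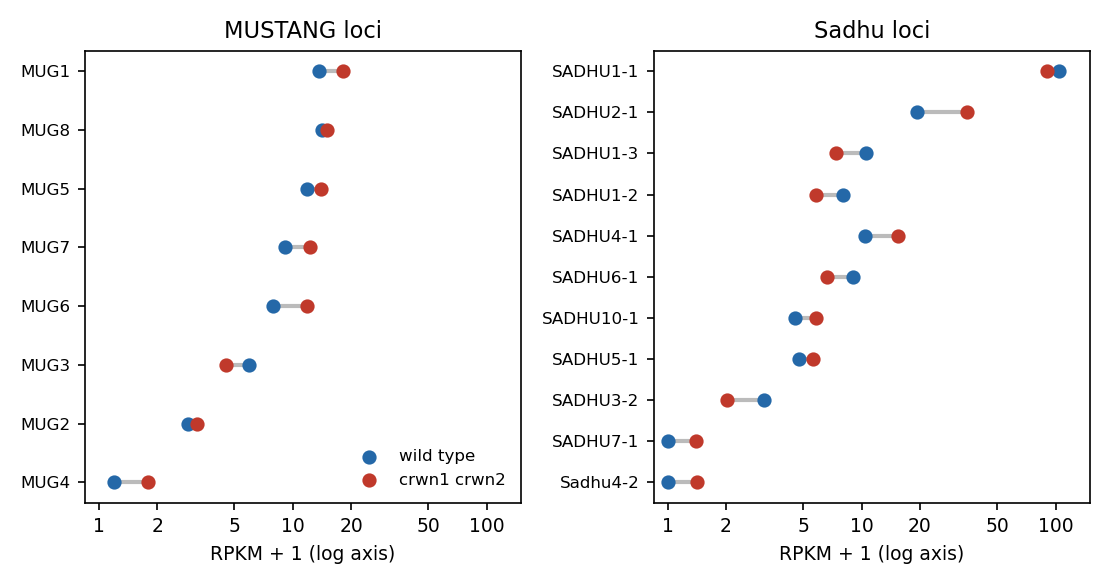
RPKM + 1 (log axis) of the 8 MUSTANG and 11 Sadhu loci in the wild-type and the crwn1 crwn2 library, 1 library each with no error bar. MUSTANG loci other than MUG3 lie somewhat to the right in crwn1 crwn2, while Sadhu loci move in both directions and SADHU1-1 stands far above the other members in both libraries.

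By the family words in the annotation, the 66 loci with polyprotein of unnamed type had 2735 reads in wild type and 2447 in crwn1 crwn2 (ratio 0.850, 0.805 to 0.898), and without AT2G07080 the ratio was 1.096 (1.020 to 1.179). The 33 LINE-like loci had 1488 and 1524 reads (ratio 0.973, 0.906 to 1.05). The 17 loci with reverse transcriptase of unnamed type had 107 and 266 reads, a ratio of 2.36 (1.88 to 2.99), and 1.547 (1.202 to 1.999) without AT5G35935. Within that group AT1G10160, with every 49-base window unique, had 27 and 56 reads (ratio 1.97, 1.22 to 3.25, log2 ratio 0.78); it was picked out after its values were seen. Loci that the family words named as copia or gypsy were almost unread, with 6 and 5 reads over 10 copia loci and again 6 and 5 over 6 gypsy loci. The 7 En/Spm loci had 12 and 7 reads, the 3 hAT loci 77 and 96, the 5 loci with helicase or replication protein A words 71 and 62, and the 7 Mutator loci outside the MUSTANG genes 145 and 144, and the 4 loci with only a general transposon word 2 and 9. For 139 loci the annotation named no family, with 1590 and 1698 reads (ratio 1.02, 0.947 to 1.09). The intervals of the groups in the last 3 sentences all held equality. The family words do not catch every copia element. AT1G21945 (11 and 7 reads) and AT5G13205 (6 and 1), copies of the copia element ONSEN, are not in the copia group.

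The 43 loci with primer-binding letters on their own strand had 2332 wild-type and 1923 mutant reads, a ratio of 0.784 (0.737 to 0.833), and without AT2G07080 it was 1.039 (0.952 to 1.134). The 273 loci without them had a ratio of 1.063 (1.021 to 1.106). Once AT2G07080 was left out, both sets lay within a few percent of equal reads.

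Of the elements looked up because they are known to be released from silencing, those listed were copies of ONSEN, the heat-responsive copia element. AT1G21945 had 11 reads in wild type and 7 in crwn1 crwn2, AT5G13205 had 6 and 1, and AT3G61330 had 1 and 1, with all 3 intervals holding equality. The loci of EVADE, CACTA and VANDAL21 that were looked up, and the other ONSEN copies, were listed in neither library. These counts are of uniquely placed reads, and ONSEN copies are nearly identical to each other: 24.3%, 11.1% and 4.89% of the 49-base windows of AT1G21945, AT5G13205 and AT3G61330 are unique. The most repeated window of AT5G13205 lies at chr5:4209887-4209935 of RefSeq TAIR10.1 and is given on the plus strand in lower case. It has 9 copies in the genome, so a 49-base read of it has no unique place there. Whether the deposited counts took uniqueness over the genome or over the models is not given.
ONSEN window: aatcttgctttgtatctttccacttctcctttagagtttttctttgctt

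The class as a whole was more repeated than other loci. A median of 98.9% of a locus's 49-base windows were unique, against 100% for other loci. All windows were unique in 118 of the 316 loci (37.3%), against 85.4% of other loci. In 34 loci fewer than 50% were unique, and these held only 77 and 74 reads. In 10 of the 316 no window was unique, yet reads were counted there, 8 and 1 in AT2G07686 among them. Uniqueness in the genome thus does not settle which reads were counted. Among the 118 fully unique loci the ratio of reads was 1.05 (0.994 to 1.12). Of their 40 measured members 0 were called higher, beside 6.34% of all measured loci, and 1, AT5G27947, lower, beside 4.53%. Transcription of young, near-identical copies may therefore lie mostly outside what these counts can show. The loci had a median GC content of 41.9% and a median length of 2610 bp, against 39.3% and 1456 bp for other loci, and 33 of them overlap a protein-coding gene. No source used here states the strand of the reads, and where genes overlap their reads cannot be assigned to either.

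The loci are concentrated near the centromeres, taken as 15, 3.6, 14, 4 and 12 Mb on chromosomes 1 to 5: 167 of the 316 (52.8%) lie within 2.5 Mb, against 5.39% of other nuclear loci. Those 167 had 4636 wild-type and 4476 mutant reads, a ratio of 0.918 (0.881 to 0.956). The 149 loci farther out had 2349 and 2650 reads, a ratio of 1.072 (1.014 to 1.134), which turned to 0.976 (0.923 to 1.032) under TMM scaling. The lower ratio near the centromeres was that of AT2G07080: without it, the 166 other loci had 3289 and 3630 reads and a ratio of 1.049 (1.0004 to 1.100). Without AT1G80020 the loci farther out had a ratio of 1.044 (0.985 to 1.107). Each locus left out was the one that differed most on its side, and they pulled in opposite directions. Leaving them out thus had to bring the near and far ratios closer. Other nuclear loci had 0.987 (0.979 to 0.995) within 2.5 Mb and 1.001 (0.999 to 1.003) beyond. The median log2 ratio of measured transposable element loci was -0.03 near and 0.15 far, and among other nuclear loci it was 0.15 and 0.12.

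In finer steps of distance, the 65 loci within 1 Mb had 3110 and 2795 reads (ratio 0.854, 0.811 to 0.899), and 1.051 (0.985 to 1.121) without AT2G07080. Among the 65, the loci numbered AT2G07682 to AT2G07784 on chromosome 2 have only 0 to 11.8% unique 49-base windows. The windows were compared over an assembly that includes the organelle genomes. Whether the reads of these loci came from them or from other copies was not tested. The 102 loci from 1 to 2.5 Mb had 1526 and 1681 reads (1.047, 0.976 to 1.123). The 53 loci from 2.5 to 5 Mb had 498 and 510 (0.973, 0.859 to 1.10), and the 96 loci at 5 Mb or more had 1851 and 2140 (1.099, 1.032 to 1.170). There was no steady course with distance. Other nuclear loci within 1 Mb had a ratio of 0.910 (0.893 to 0.928) over 156 loci. Whether that ratio rests on few strongly read loci was not tested.

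**Figure D3:**
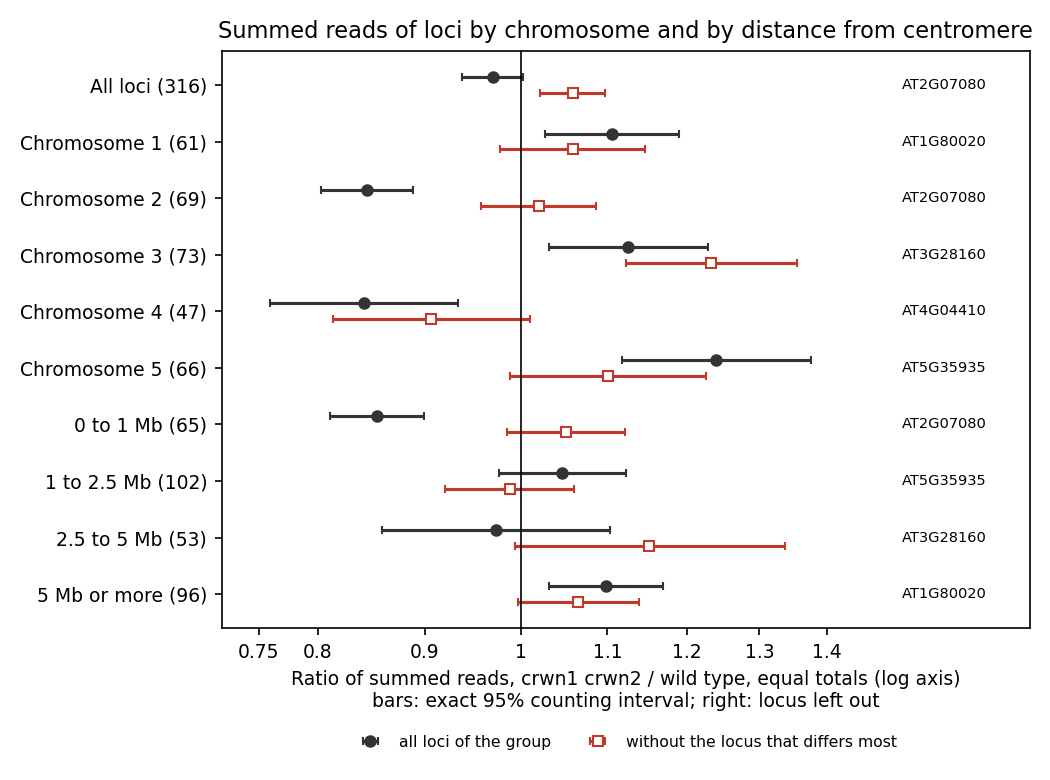
Ratio of summed reads for equal library totals, crwn1 crwn2 over wild type, on a log axis, for all 316 loci, by chromosome and by distance from the approximate centromere, with the number of loci in brackets. Black points are all loci of a group, red squares the group without the locus that differs most (named at the right), and bars are exact 95% counting intervals; most groups come to lie near or just above 1 once that locus is left out.

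Chromosome by chromosome the summed ratio lay on both sides of equality. Chromosome 1 had 61 loci with 1351 reads in wild type and 1572 in crwn1 crwn2 (ratio 1.106, 1.028 to 1.190). Chromosome 2 had 69 loci and the most reads, 3246 and 2884 (0.844, 0.803 to 0.888), and a ratio of 1.020 (0.958 to 1.086) without AT2G07080. Chromosome 3 had 73 loci with 955 and 1131 reads (1.126, 1.032 to 1.228), or 1.233 (1.123 to 1.355) without AT3G28160, which ran against the rest. Chromosome 4 had 47 loci with 789 and 699 reads (0.842, 0.759 to 0.933), and 0.906 (0.813 to 1.010) without AT4G04410. Chromosome 5 had 66 loci with 644 and 840 reads (1.240, 1.117 to 1.376), and 1.101 (0.989 to 1.226) without AT5G35935. On chromosome 4 the 27 loci within 2.5 Mb of the centromere had 350 wild-type and 253 mutant reads, a ratio of 0.687 (0.582 to 0.810), and 0.802 (0.665 to 0.967) without AT4G04410. With AT4G04410 left out, that interval still lay below equality. Near the centromere of chromosome 3 the 32 loci had 343 and 460 reads (1.275, 1.106 to 1.470), and 1.160 (0.985 to 1.367) without AT3G43955, a polyprotein locus with 71 and 128 reads.

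Loci read in a single library were frequent, in a class where many loci had few reads. Whether the low read numbers account for this was not tested. In wild type only, 62 of the 316 were read (19.6%), and in crwn1 crwn2 only, 90 (28.5%). Over all 21808 loci those shares were 5.08% and 7.27%, so in the class and in the background alike more loci were read in the mutant alone, and the mutant library was also the deeper one. Of these loci 49 and 78 had exactly 1 read. With at least 2 reads there were 13 in wild type only and 12 in crwn1 crwn2 only (4.11% and 3.80%), beside 1.80% and 3.15% of all loci. With at least 3 there were 8 and 5 (2.53% and 1.58%), beside 0.807% and 1.59% of all loci. In the class the surplus in the mutant thus came from loci with a single read, while over all loci it remained at these higher thresholds. In all, these single-library loci held 96 wild-type and 113 mutant reads, a very small part of the class.

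**Figure D4:**
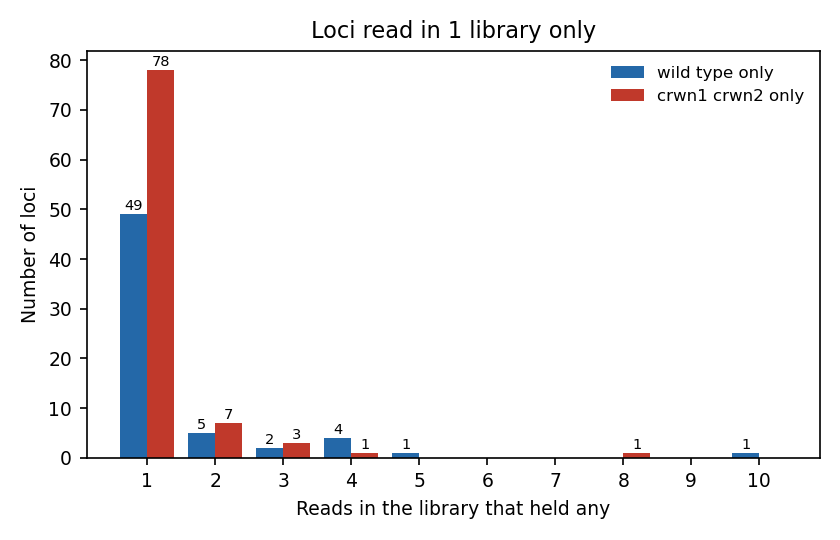
Number of loci read in 1 library only (y axis) by the number of reads they had there (x axis), for wild type and crwn1 crwn2. Most bars stand at 1 read, 49 wild-type and 78 mutant loci, and only AT2G13975 with 8 reads and AT5G27947 with 10 lie above 5.

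The mutant-only loci lay somewhat nearer to the centromeres by their median. It was 1.98 Mb, with 61.1% within 2.5 Mb, against 2.32 Mb and 53.2% for wild-type-only loci and 2.56 Mb and 48.2% for loci read in both. They were also longer, with a median of 3347 bp against 2062 and 2590 bp, and 16.7% of them carried the primer-binding letters, against 6.45% and 14.6%. By chromosome, wild-type-only and mutant-only loci numbered 10 and 19 on chromosome 1, 16 and 18 on chromosome 2, 18 and 17 on chromosome 3, 6 and 20 on chromosome 4, and 12 and 16 on chromosome 5. By family the same counts were 6 and 22 for polyprotein loci, 7 and 10 for LINE-like, 5 and 4 for copia, 2 and 2 for gypsy, and 34 and 33 for loci with no family word. Nearly all of these counts rest on single reads. Some of the chromosome 2 loci among them, such as AT2G07685 in wild type and AT2G07735 in the mutant, have no unique 49-base window.

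**Figure D5:**
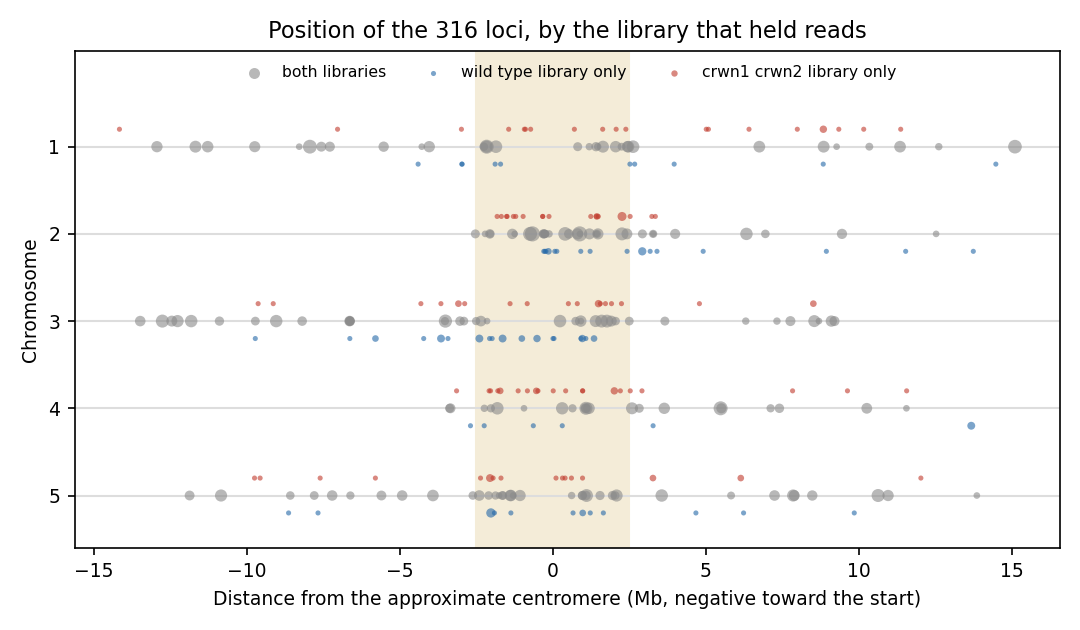
Position of the 316 loci on the 5 chromosomes, as distance from the approximate centromere in Mb, negative toward the start of the chromosome, with the 2.5 Mb on each side shaded. Grey points were read in both libraries, blue points below the line in wild type only and red points above it in crwn1 crwn2 only, and larger points had more reads; single-library loci lie along whole arms as well as near the centromeres, where 55 of the 90 mutant-only and 33 of the 62 wild-type-only loci stand.

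Few single-library loci had more than a handful of reads, and these were picked out after their values were seen. AT5G27947 and AT2G15060, an En/Spm locus with 5 reads, were those with at least 5 reads in wild type only. The one with at least 5 in the mutant only was AT2G13975 on chromosome 2 (chr2:5864884-5865600, minus strand), with 0 and 8 reads over 21.9% of its length in the mutant. With the floor of 3 reads put in place of the 0 it was 2.53-fold higher, and the interval's nearer limit was 1.62-fold. It was too thinly read to count as measured. Of its 8 reads 7 came from a second transcript model whose row carries no product name. It lies 82 bp from AT2G13970, the Mutator locus that had 119 and 106 reads, so the pair did not move together.

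Genes that write, read or remove silencing marks are other parts of the pathway that acts on these loci. Of 31 such genes 18 were measured, and 16 of them (88.9%) lay above 0, against 59.4% of all measured loci, with a median log2 ratio of 0.33, beside 0.12 for all measured loci (0.21 beside -0.01 under TMM). Of the 18, 1 was called higher (5.56%, beside 6.34% of all measured loci) and none lower (beside 4.53%), and in these counts no measured gene of the list had lost most of its transcript. ROS1, the DNA glycosylase that removes methylated cytosine, had 130 wild-type and 294 mutant reads, a log2 ratio of 1.05 (read ratio 2.15, 1.74 to 2.66). Under TMM scaling it was no longer called. CMT3, the methyltransferase for CHG sites, had 77 and 151 reads (log2 ratio 0.85), and CLSY1, which recruits RNA polymerase IV to its targets, had 53 and 104 (log2 ratio 0.81). These 3 were chosen by the size of their log2 ratio. MORC1 and DRD1, the measured genes of the list below 0, each had a log2 ratio of -0.09. The 13 genes not measured included AGO1, with 1 and 0 reads, and NRPD1, SUVH6, DCL3 and DCL4, listed in neither library. Whether the way reads were counted or the level of transcript lies behind this was not tested.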

How the data were processed

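Polyadenylated RNA was sequenced from 1 wild-type and 1 crwn1 crwn2 seedling library, grouped by the genotype label. Per the file headers, the deposited counts are uniquely placed reads per transcript model, and they sum to the totals given in the report. The authors' RPKM divides those counts by model length and total. The authors' coverage column gives the percent of a model's length that reads cover. The submitters' processing notes name TAIR10 as the genome build, and the sources used here do not give the aligner, counting rule, filters or strand. A model without reads is not listed and counts as 0.

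From these files, reads and RPKM were summed per locus in Python 3.11.15 (pandas 2.3.3, SciPy 1.17.1). Log2 ratios used RPKM + 1. Measured loci reached an RPKM of 1 and 10 reads in 1 library; calls needed a 2-fold difference and an exact 95% interval that left out equality. Intervals cover counting error only, since PCR copies of a molecule are not independent. A floor of 3 counts equals a CPM of 1.43 in the wild-type and 1.36 in the mutant library. No p-value was computed. TMM factors came from edgeR 4.0.16 in R 4.3.3. The calling rule was run on simulated counts that held counting error only. That run cannot show how the rule behaves with the spread between plants or libraries.

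Distances run from the midpoint of a locus. All 316 loci matched RefSeq TAIR10.1, 313 with the same coordinates. Sequences, host introns, neighbours and the uniqueness of 49-base windows, the length that a model with 1 read had covered, come from that assembly. Families were read as words in the deposited Blast annotation, in RefSeq notes or, for MUSTANG, in RefSeq symbols, a wider source than first planned. Named loci were all called ones, the 12 with the most reads, loci with 0 reads against at least 10, listed EVADE, ONSEN, CACTA and VANDAL21 loci, and the 3 silencing genes with the largest log2 ratio; family members and others named beside them illustrate a group. The members, lists and rules were chosen with earlier results of these data known. Alternatives were other scaling, pseudocounts, floors, thresholds and widths, and leaving out the most different locus.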

Additional observations from a re-analysis of the deposited data

How the results depend on the processing

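No replicate existed, so no setting can show the spread between plants, and the median locus had 1 read. No paired analysis was possible because there was 1 library per genotype. TMM scaling multiplies every ratio of reads by 0.910; it moved the median log2 ratio of all measured loci by -0.13, from 0.12 to -0.01, and that of the class by -0.12, from 0.05 to -0.07, so the class minus all loci was -0.07 and -0.06. Under TMM the class ratio was 0.883, that within 2.5 Mb of centromeres 0.835, that beyond 0.976, on the other side of equality, that of LINE-like loci 0.886, of polyprotein loci 0.774 and of loci with no family word 0.924, and 0 silencing genes were called higher. Without AT2G07080, which is both the most read and the most different locus, the class ratio was 1.059; ratios turned to the other side of equality near centromeres (1.049), on chromosome 2 (1.020), within 1 Mb (1.051), for polyprotein loci (1.096) and with primer-binding letters (1.039). Without their own most different locus the ratio was 1.233 on chromosome 3, 1.101 on chromosome 5, 1.152 from 2.5 to 5 Mb, 1.124 for Sadhu, 1.389 for Mutator and 1.547 for reverse transcriptase loci. A width of 1.5 Mb gave 0.860 near centromeres. Calls higher and lower numbered 6 and 7 of 81 measured loci at 1.5-fold, beside 13.8% and 8.30% of all measured loci. At 4-fold they numbered 1 and 0 of 81, beside 0.896% and 0.750%. Among the 40 measured fully unique loci they numbered 0 and 1, beside 6.34% and 4.53% of all measured loci at 2-fold. An RPKM floor of 5 left 3 higher and 1 lower of 51, beside 6.14% and 4.80%. Loci read in wild type only and crwn1 crwn2 only numbered 8 and 5 with at least 3 reads, beside 0.807% and 1.59% of all loci. They numbered 2 and 1 with at least 5 (0.202% and 0.537% of all loci), and 1 and 0 with at least 10 (0.0275% and 0.0825%). None of the 18 named loci gained or lost a call under TMM, a pseudocount of 0.1 and CPM. The values without the most different locus by chromosome, distance and primer-binding letters, the family, silencing and unique-locus values were chosen after seeing the data.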

Other observations

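Transposon-derived sequence is also found in loci that the tables name by another product, and these were not among the 316. Of 16 such loci with transposase or gag words in their product, AT1G21280, with a retrotransposon gag domain, had 6 reads in wild type and 22 in crwn1 crwn2 (ratio 3.49, 1.37 to 10.5, log2 ratio 1.51) and passed the 2-fold rule. It was 1 of the 8 that were measured, beside 6.34% of all measured loci called higher, and the other 7 were not called. The PIF/Harbinger-like genes AT3G19120 and AT3G55350 had 144 and 177 reads and 37 and 57 reads, and the hAT-derived gene AT1G79740 had 83 and 96. AT4G15020, another hAT-derived gene, had 0 and 6 reads, too few to count as measured.

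Of 7 transposable element gene loci that lie inside an intron, AT3G60965 had 44 reads in wild type and 46 in crwn1 crwn2, while its host gene on the opposite strand is not listed with reads in either library. Without AT1G58561 the other 6 had a ratio of 0.895 (0.590 to 1.35). The domesticated hAT gene AT1G15300, CYTOSLEEPER in RefSeq, had 24 and 17 reads.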
